A study of Mus musculus with 2 samples.

Results

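The 9 genes described here were Eph receptors and ephrins of the embryonic mouse eye: the EphA receptors Epha3, Epha4, Epha5 and Epha7, the EphB receptors Ephb1 and Ephb2, the ephrin-A ligand Efna5, and the ephrin-B ligands Efnb1 and Efnb2. They were found by gene symbol, and all 9 were present among the 31053 features of both count matrices. The 13 other genes of the family there are given mainly by counts, with values for a few of them. Eyecups, the embryonic eyes with retina, lens and blood, were dissected at E13.5 and dissociated, and single-cell RNA was tagged at transcript 3′ ends with unique molecular identifiers (UMIs), each marking 1 captured molecule. The control library was Six3+/-;Six6+/-, so control cells carried 1 mutant copy of each gene, and the DKO library was Six3F/F;Six6-/-;a-Cre. In the DKO, Six6 was missing in the germ line and the floxed Six3 alleles were removed by a Cre that is active in the peripheral retina and not in its centre, which leaves a mixture of cells with and without Six3. There was 1 library per genotype, made, as the study's methods describe it, from the eyecups of 1 embryo. No difference between genotypes could therefore be tested, genotype, embryo and library cannot be told apart, and every interval below is a 95% interval that covers counting error only.

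Eph receptors are receptor tyrosine kinases that are activated by ephrins on the surface of a neighbouring cell. EphA receptors mainly bind ephrin-A ligands, which are held in the membrane by a lipid anchor, whereas EphB receptors mainly bind ephrin-B ligands, which cross the membrane and can signal back into their own cell. In the developing retina, graded EphA and ephrin-A levels along the nasotemporal axis and graded EphB and ephrin-B levels along the dorsoventral axis are known for guiding ganglion cell axons to their targets in the brain.

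The control and DKO matrices held 10315 and 12672 barcodes with 85589515 and 85173276 UMIs, of which 9822 and 12146 cells were kept, with medians of 7620 and 5879 UMIs per cell; 22 barcodes occurred in both libraries. Integrated clustering, from which all 22 family genes were left out, gave 20 clusters. Naive-like progenitors (clusters 0 and 6, led by genes of S phase and of G2/M) comprised 2075 control and 2094 DKO cells, neurogenic-like progenitors (clusters 4 and 9) 1293 and 1631, and ganglion-like neurons (clusters 5, 7 and 14) 1188 and 2451. Cluster 1, with 1203 and 1217 cells, had higher levels of all naive progenitor markers than the remaining cells but stayed unnamed, since a vessel gene stood among its leading genes, and cluster 10, with 667 cells, held no control cell and stayed unnamed as well. Cluster 14 was mostly called as doublets (93.8% of its control and 83.1% of its DKO cells). In naive-like cells, Six3 stood at 316 counts per 1000000 UMIs (CPM) in the control and 234 CPM in the DKO, and Six6 at 361 and 47.7 CPM, although reads from undeleted parts of a transcript are counted as well. Pigment epithelium-like cells (cluster 2, 1040 and 1196 cells) were a mixed class. In the control, their naive progenitor, ciliary margin and pigment epithelium markers summed to 3253, 599 and 527 CPM, against 4811, 257 and 20.1 CPM in naive-like cells. In the DKO their ciliary margin markers, at 2008 CPM, also summed above their pigment epithelium markers, at 1420 CPM. The name therefore does not separate pigment epithelium from ciliary margin cells.

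In the control, the 9 genes were distributed differently over the retinal cell types. Epha3, an EphA receptor, was concentrated in neurogenic-like progenitors, at 76.5 CPM (71.0 to 82.3) against 5.65 CPM (4.74 to 6.68) in naive-like cells, a 13.6-fold difference. In the ganglion-like cells it stood at 12.0 CPM (9.99 to 14.2), and within these at 23.5 CPM in cluster 7 and 2.20 CPM in cluster 5. The interval of the neurogenic-like level overlapped that of no other type, whereas those of photoreceptor-like, amacrine or horizontal-like and ganglion-like cells overlapped each other in order of level.

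Epha5, a receptor known for its high temporal level, was detected in every named retinal type. Its control levels there ran from 262 CPM in pigment epithelium-like cells, through 291 CPM in naive-like and 350 CPM in ganglion-like cells, to 452 CPM (405 to 504) in amacrine or horizontal-like cells. Cluster 1, at 412 CPM, was next to the last of these and their intervals overlapped. Epha5 gave 62.8% of all EphA receptor UMIs in neurogenic-like cells and 83.3% in ganglion-like cells of the control.

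Epha4, which binds ligands of both ephrin classes, lay between 45.2 and 63.4 CPM in the control progenitors, pigment epithelium-like and amacrine or horizontal-like cells and at 23.8 CPM (21.0 to 26.9) in ganglion-like cells. Epha7 was low throughout, with its highest control level, 17.6 CPM (14.99 to 20.4), in neurogenic-like cells and 9.26 CPM in naive-like cells.

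Ephb2, the EphB receptor with the most UMIs in each of these types, was highest in the ganglion-like cells of the control, at 170 CPM (163 to 178) against 89.7 CPM in naive-like and 61.2 CPM in neurogenic-like cells. Cluster 5, a ganglion-like cluster whose leading genes included Nefl and Gap43, reached 213 CPM. Ephb1, a receptor known for steering the axons that stay on their own side of the brain, had its highest control level in naive-like cells, at 10.2 CPM, and its lowest in neurogenic-like cells, at 2.42 CPM (1.53 to 3.63). The naive-like interval (8.94 to 11.5) overlapped that of ganglion-like cells (6.88 to 10.5). The neurogenic-like interval overlapped those of photoreceptor-like and amacrine or horizontal-like cells.

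Among the ligands, Efna5 stood in the control at 84.5 CPM in cluster 1, 115 CPM in naive-like cells and 215 CPM (183 to 252) in amacrine or horizontal-like cells. Efnb2 was highest in the mixed pigment epithelium-like class and cluster 1, at 183 and 180 CPM with overlapping intervals. It stood at 121 CPM in naive-like and 73.9 CPM in ganglion-like cells. Efnb1 stood at 47.0 CPM (29.1 to 71.8) in photoreceptor-like cells, where only 21 UMIs were counted, at 17.7 CPM in naive-like and 11.8 CPM in ganglion-like cells. In the largest red blood-like cluster (cluster 8), which should lack these transcripts, no member exceeded 1.86 CPM in the control or 8.06 CPM in the DKO. The shallower red blood-like cluster 11, with medians of 909 and 1053.5 UMIs per cell and 35.7% and 8.39% of its cells called as doublets, held more, with Epha5 at 187 and 188 CPM and Epha3 at 13.9 CPM in the control and 69.3 CPM in the DKO.

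**Figure D1:**
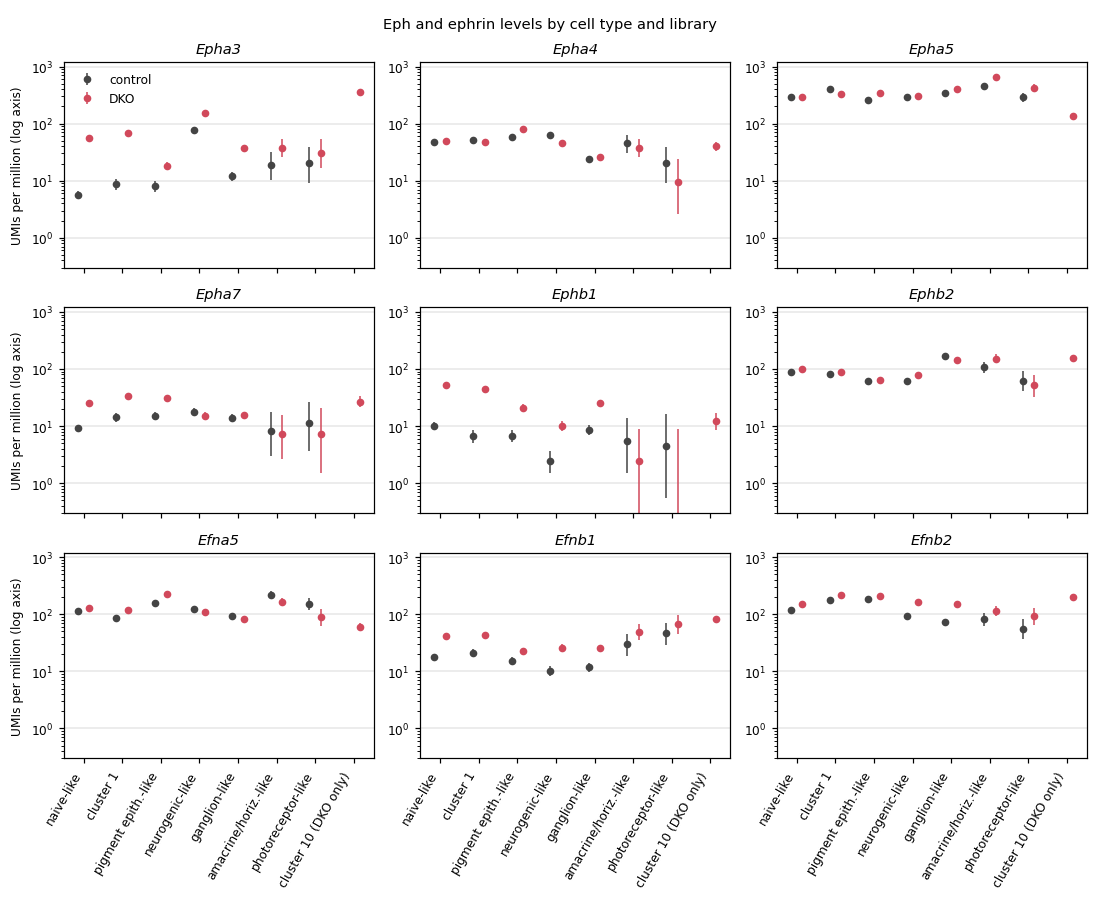
Levels of the 9 genes in CPM (log axis) by cell type, grey for control and red for DKO, 1 library each, with exact 95% Poisson intervals; a group with 0 UMIs has no point. Epha3 reached 358 CPM in the DKO-only cluster 10 and 76.5 CPM in control neurogenic-like cells, and Epha5 stood at 138 CPM in cluster 10 against 262 CPM or more in the named retinal types of the control.

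The comparison of DKO with control asked how these genes differed between the 2 libraries. Six6 was mutant in all DKO cells, whereas only a part of them had little Six3. In naive-like cells, 4 of the 9 genes were at least 1.5-fold higher in the DKO, where 5.12% of all genes with at least 100 UMIs in the 2 libraries passed that fold, and 0 were lower, against 2.71% of all genes. The median log2 ratio was 0.30 over the 9 genes and 0.02 over all genes tested. The 9 genes were chosen with earlier results of these data known, so such counts may in part reflect that choice.

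Epha3 showed the widest difference among the 9, with 5.65 CPM in the control and 54.9 CPM (51.8 to 58.1) in the DKO, a 9.73-fold ratio and a log2 ratio of 3.28 (3.02 to 3.55). Ephb1 stood at 10.2 CPM in the control and 51.5 CPM (48.5 to 54.6) in the DKO, with a log2 ratio of 2.34 (2.14 to 2.55). For both genes, the DKO level in naive-like cells lay far above the counting interval of the control.

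Epha7 stood at 9.26 CPM in the control and 25.5 CPM (23.4 to 27.7) in the DKO, with a log2 ratio of 1.46 (1.24 to 1.69). Efnb1 stood at 17.7 CPM and 41.3 CPM (38.6 to 44.1), with a log2 ratio of 1.22 (1.05 to 1.39). Efnb2 was 121 CPM in the control and 149 CPM in the DKO, a log2 ratio of 0.30 (0.23 to 0.37). The remaining members differed little, with log2 ratios of 0.18 for Efna5, 0.13 for Ephb2, 0.07 for Epha4 and 0.03 for Epha5. The interval of the difference ran from -0.05 to 0.19 for Epha4 and from -0.01 to 0.08 for Epha5.

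The shares of cells with a UMI moved with these levels. After each cell was thinned to 2000 UMIs, Epha3 was detected in 31 of 2067 control naive-like cells (exact binomial interval 1.02% to 2.12%) and 203 of 2085 DKO cells (8.50% to 11.1%), and without thinning in 5.88% and 30.0%. Ephb1 was detected in 1.84% and 9.59% of the thinned cells. In cluster 8, with median depths of 8997 and 7013 UMIs against 10385 and 8962 UMIs in naive-like cells, Epha3 was found in 1 of the 788 control and 1 of the 312 DKO cells after thinning, and Ephb1 in 0 of 788, which allows a share of up to 0.381%, and in 1 of 312.

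Both naive-like clusters showed the difference in Epha3, with a log2 ratio of 2.16 (1.82 to 2.51) in cluster 0 and 4.12 (3.67 to 4.60) in cluster 6. Epha5 went opposite ways in them, at 291 CPM in the control and 373 CPM in the DKO in cluster 0, and at 292 and 211 CPM in cluster 6. Cluster 6 made up 738 of the 2075 control and 972 of the 2094 DKO naive-like cells. In the unnamed cluster 1, Epha3 (log2 ratio 2.99), Ephb1 (2.78), Epha7 (1.21) and Efnb1 (1.01) were again the members at least 1.5-fold higher, against 4.44% of all genes there, and 0 were lower, against 3.41%. Epha5 had a log2 ratio of -0.29 (-0.37 to -0.22) in cluster 1.

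In neurogenic-like progenitors, the members at least 1.5-fold higher in the DKO were Epha3, Ephb1, Efnb1 and Efnb2, 4 of 9 against 7.01% of all genes, and 0 were lower, against 4.86%. Epha3 stood at 76.5 CPM in the control and 151 CPM (143 to 160) in the DKO, a log2 ratio of 0.98 (0.85 to 1.12). Ephb1 stood at 2.42 CPM and 10.1 CPM (8.12 to 12.5), which were 23 and 88 UMIs.

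Efnb1 was 10.3 CPM in the control and 26.0 CPM in the DKO, a log2 ratio of 1.34 (0.99 to 1.69), and Efnb2 was 91.7 and 165 CPM, a log2 ratio of 0.84 (0.72 to 0.97). Epha4 was on the other side, at 63.4 CPM in the control and 45.9 CPM in the DKO, with a log2 ratio of -0.46 (-0.65 to -0.28). Efna5 was also slightly lower in the DKO, by a log2 ratio of -0.20 (-0.33 to -0.08).

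In ganglion-like neurons, 4 of the 9 members were again at least 1.5-fold higher in the DKO, namely Epha3, Ephb1, Efnb1 and Efnb2, against 7.49% of all genes, and 0 of the 9 were lower, against 3.15%. With the libraries merged without integration, a cluster of 1498 DKO and 15 control cells, led by Tbr1 and Mmd2, stayed unnamed. It had 88.9% of the ganglion cell markers raised, so the DKO cells compared here may mix neuron types. Efnb2, a ligand of the dorsal retina, stood at 73.9 CPM in the control and 152 CPM (147 to 158) in the DKO, a log2 ratio of 1.04 (0.93 to 1.16). It was most different in cluster 7, at 78.1 CPM against 212 CPM. Epha3 stood at 12.0 and 37.0 CPM, with a log2 ratio of 1.63 (1.35 to 1.91).

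Ephb1 stood at 8.53 CPM in the control and 25.0 CPM in the DKO of the ganglion-like cells. This difference was not seen in every ganglion-like cluster: cluster 5 had 11.2 and 36.4 CPM, whereas cluster 7 had 5.36 and 4.92 CPM, with an interval of the log2 ratio from -0.98 to 0.76. Ephb2, the EphB receptor with the most UMIs in these neurons, stood at 170 CPM in the control and 142 CPM in the DKO, a log2 ratio of -0.26 (-0.35 to -0.18). Epha7 also differed by cluster, with log2 ratios of -0.59 (-1.01 to -0.17) in cluster 7 and 1.14 (0.51 to 1.81) in cluster 5.

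**Figure D2:**
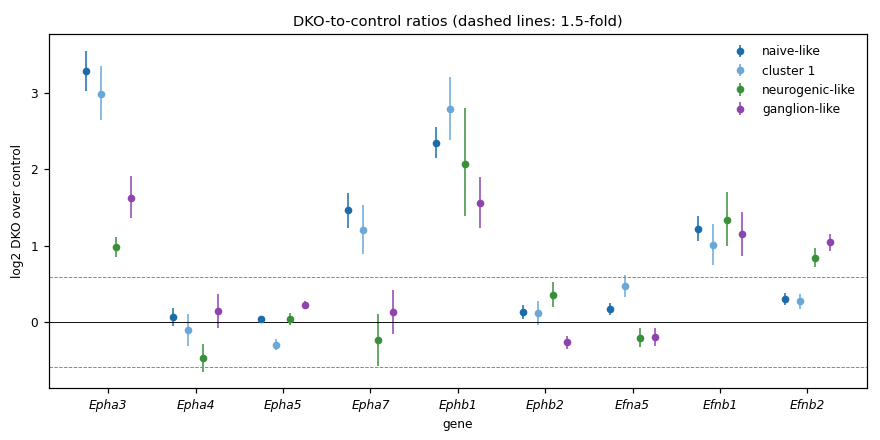
Log2 ratio of DKO over control for each gene in naive-like cells, cluster 1, neurogenic-like and ganglion-like cells (1 library per genotype; bars are exact 95% counting intervals; dashed lines mark 1.5-fold). Epha3, Ephb1 and Efnb1 lay above the upper dashed line in all 4 groups, and Efnb2 only in neurogenic-like and ganglion-like cells.

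Epha3, Ephb1 and Efnb1 were thus the members past 1.5-fold in naive-like, neurogenic-like and ganglion-like cells. With the libraries merged without integration, which changed the cells in each class, the log2 ratio of Efnb1 in naive-like cells was 0.43, below 1.5-fold. Those of Epha7 there (0.39) and of Epha3 in neurogenic-like cells (0.575) were below it too. The neurogenic-like ratio of Epha3 was also below 1.5-fold at a cluster resolution of 0.3 (0.52) and in Six3-low DKO cells alone (0.37). The latter were 59 cells, with Six3 at 226 CPM against 265 CPM in the other DKO neurogenic-like cells. The promoters of Epha3, Ephb1 and Efnb1 are printed with that of Epha5, which was lower in the naive-like DKO cells with little Six3. Each window runs from 250 bases before to 50 bases after a RefSeq transcription start, 5′ to 3′ on the gene's strand, in build GRCm38.p6 (mm10). All 9 symbols matched, with 10 windows. Capitals mark matches on either strand to TGATAC (a core of SIX-type homeodomain sites), TAATTA (a homeodomain core), GGGCGG (known as a GC box) or TATAAA (the box near many start sites), and no match overlaps another. The windows were chr16:63864126-63864425 (minus strand) for Epha3, chr9:102354644-102354943 (minus strand) for Ephb1, chrX:99135811-99136110 (plus strand) for Efnb1 and chr5:84417333-84417632 (minus strand) for Epha5.
Epha3: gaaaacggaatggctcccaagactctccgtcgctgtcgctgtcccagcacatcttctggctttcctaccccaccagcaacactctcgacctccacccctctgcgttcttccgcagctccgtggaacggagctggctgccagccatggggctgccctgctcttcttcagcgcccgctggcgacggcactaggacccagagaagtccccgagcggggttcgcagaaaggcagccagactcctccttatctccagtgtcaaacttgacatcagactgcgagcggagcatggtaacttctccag
Ephb1: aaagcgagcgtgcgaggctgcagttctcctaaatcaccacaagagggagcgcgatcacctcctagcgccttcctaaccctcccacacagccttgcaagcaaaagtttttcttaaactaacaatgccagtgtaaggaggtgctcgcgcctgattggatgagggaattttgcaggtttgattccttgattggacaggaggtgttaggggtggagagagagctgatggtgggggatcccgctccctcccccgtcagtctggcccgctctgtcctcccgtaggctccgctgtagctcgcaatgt
Efnb1: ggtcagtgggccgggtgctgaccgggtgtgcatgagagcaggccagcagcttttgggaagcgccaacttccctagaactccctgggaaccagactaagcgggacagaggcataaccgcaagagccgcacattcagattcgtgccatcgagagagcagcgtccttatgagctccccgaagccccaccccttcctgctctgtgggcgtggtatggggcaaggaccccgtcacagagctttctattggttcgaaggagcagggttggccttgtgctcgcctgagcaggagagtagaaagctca
Epha5: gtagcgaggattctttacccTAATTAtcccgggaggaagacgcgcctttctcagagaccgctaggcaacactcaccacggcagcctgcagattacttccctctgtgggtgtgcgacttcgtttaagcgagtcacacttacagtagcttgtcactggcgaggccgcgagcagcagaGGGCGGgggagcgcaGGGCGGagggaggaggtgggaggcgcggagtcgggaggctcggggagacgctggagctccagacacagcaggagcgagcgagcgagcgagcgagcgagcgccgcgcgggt

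TGATAC was found in 0 of the 10 member windows and in 5.46% of all 32851 promoter windows, and TAATTA in the Epha5 window only, against 5.29% of all windows. GGGCGG was found in 6 of the 10 windows, including that of Epha5, against 35.7% of all windows, and in none of the 3 windows of Epha3, Ephb1 and Efnb1. The windows of Epha7, chr4:28812881-28813180 and chr4:28812895-28813194, overlap and hold the same match, which is counted in each. TATAAA was found in the Efnb2 window only, against 13.6% of all windows. The GC content was 60.7% for Epha3, 55.7% for Ephb1, 59.7% for Efnb1 and 64.3% for Epha5, and the median of all windows was 52.7%.

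The genes themselves lie on 8 chromosomes in mm10. Epha3 spans chr16:63543534-63864175, Ephb1 chr9:101922128-102354693, Epha5 chr5:84054761-84417382 (each on the minus strand) and Efnb1 chrX:99136130-99148991 on the plus strand. Epha7 (chr4:28813131-28967499) and Ephb2 (chr4:136647539-136835988) share chromosome 4. All 9 are annotated as protein-coding genes.

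In the DKO, cluster 10 had the highest Epha3 level of all retinal groups. It was led by Tbr1, Lhx9, Rspo3 and Eomes, and 96.1% of its cells belonged to DKO subclusters with Six3 below 50% of the control naive-like level. Epha3 stood at 358 CPM (337 to 380), against 151 CPM in neurogenic-like and 37.0 CPM in ganglion-like cells of the same library. It was detected in 50.8% (46.9 to 54.7) of the thinned cells and gave 63.0% of all EphA receptor UMIs there, a place taken by Epha5 in cluster 1 and every named retinal type of either library.

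Compared with the ganglion-like cells of the DKO, 4 of the 9 members were at least 1.5-fold higher in cluster 10 (Epha3, Efnb1, Epha7 and Epha4), against 7.03% of all genes, and 2 were lower (Epha5 and Ephb1), against 1350 of the 10035 genes tested. Efnb1 stood at 82.4 CPM (72.6 to 93.1) in cluster 10 and 26.1 CPM in ganglion-like cells. Epha5 stood at 138 CPM against 409 CPM, a log2 ratio of -1.57 (-1.71 to -1.43), and Ephb1 at 12.3 CPM against 25.0 CPM. Ephb2 was nearly level, at 157 and 142 CPM. Among the ephrin-A ligands, Efna5 was at 59.8 CPM in cluster 10 and Efna2, which is not among the 9, gave 42.6% of the ephrin-A UMIs.

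The DKO mixture allowed a comparison inside 1 library. DKO cells were clustered alone, again without the family genes and without Six3. Subclusters with Six3 below 50% of the control level of the cell class in question were called Six3-low, so that the Six3 values chose the groups and are a description. These were 906 of the 2094 DKO naive-like cells, at 110 CPM of Six3 against 328 CPM in the other 1188 and 316 CPM in the control. They made up 81.0% of the DKO cells in cluster 6 and 10.6% of those in cluster 0, so that the Six3-low class and the cell cycle cluster moved together. Since the Cre is active in the peripheral retina and not in its centre, low Six3 and peripheral position cannot be told apart in these comparisons.

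In Six3-low against other DKO naive-like cells, 4 of the 9 members were at least 1.5-fold higher, against 2.85% of all genes, and 1 was lower, against 6.13%. Epha3 stood at 5.65 CPM in the control, 24.6 CPM in the other DKO cells and 95.1 CPM (88.9 to 102) in the Six3-low cells. Efnb1 had the levels 17.7, 27.1 and 59.97 CPM in the same order, and Epha7 had 9.26, 19.0 and 34.1 CPM. In each of these genes the 3 groups were ordered with intervals that did not overlap.

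The difference of Ephb1 lay mostly between the control and the other DKO cells. It stood at 10.2 CPM in the control, 41.3 CPM in the other DKO cells and 65.0 CPM in the Six3-low cells, with log2 ratios of 2.02 (1.80 to 2.25) for other DKO cells over control and 0.66 (0.48 to 0.83) for Six3-low over other DKO cells. For Epha3 these log2 ratios lay closer together, at 2.12 and 1.95, as they did for Epha7, at 1.04 and 0.84, whereas those of Efnb1 were 0.62 and 1.14. In cluster 1 the corresponding log2 ratios of Ephb1 were 2.48 and 0.55, whereas those of Efnb1 were 0.02 (-0.38 to 0.41) and 1.54 (1.17 to 1.93). Both DKO groups had little Six6, at 53.9 CPM in the other and 39.4 CPM in the Six3-low naive-like cells against 361 CPM in the control.

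Epha5 was the member that was lower in Six3-low cells. It stood at 291 CPM in the control, 382 CPM (371 to 393) in the other DKO cells and 187 CPM (178 to 196) in the Six3-low cells, so that the near-zero log2 ratio of all DKO naive-like cells covered a higher and a lower group. In cluster 1, split by its own control Six3 level into 596 Six3-low and 621 other DKO cells, it was 412, 458 and 220 CPM in the same order. There, Epha3, Epha7, Efnb1 and Efna5 were at least 1.5-fold higher in the Six3-low cells, against 6.53% of all genes, and Epha5 was lower, against 7.23%. Within cluster 6, Epha5 stood at 376 CPM in 185 other DKO cells and 168 CPM in 787 Six3-low cells, and Epha3 at 21.4 and 105 CPM, whereas Ephb1 was level at 66.1 and 66.2 CPM. Within cluster 0, with only 119 Six3-low cells, the log2 ratios of Six3-low over other DKO cells were smaller for Epha3 (0.57, 0.10 to 1.01), Efnb1 (0.32, -0.18 to 0.78) and Epha5 (-0.38, -0.53 to -0.23), and that of Ephb1 was 0.67. Efnb2 was higher in the other DKO cells, at 165 CPM, than in the Six3-low cells, at 127 CPM, or in the control, at 121 CPM.

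Other cell types did not repeat the naive-like order for every member. In neurogenic-like cells, the 59 cells called Six3-low had Six3 at 226 CPM, against 265 CPM in the other DKO cells and 284 CPM in the control. The log2 ratio of Six3 between these DKO groups had an interval from -0.56 to 0.08, so the split did not clearly separate cells by Six3 there. Epha3 was lower in the 59 cells, at 98.6 CPM, than in the other DKO cells, at 154 CPM, a log2 ratio of -0.64 (-1.15 to -0.18). Epha5 was lower as well, at 145 against 311 CPM. In ganglion-like cells, the cut followed their own control Six3 level of 681 CPM, and 17 DKO subclusters fell below it, against 9 for naive-like cells. The 78 cells so called had Six3 at 258 CPM, and only 37 ganglion-like cells lay in subclusters below the naive-like cut. Whether the 78 cells differ by Six3 or by cell type was not tested. They had Epha3 at 106 against 34.3 CPM, and Epha5 at 327 against 412 CPM. The interval of their Epha5 log2 ratio over the control, from -0.30 to 0.10, held 0. In pigment epithelium-like cells, Epha3 was 41.0 against 14.2 CPM, whereas Epha5 was 333 against 344 CPM, both above the control at 262 CPM. The log2 ratios there of Epha7 (-0.34) and Efnb1 (0.38) had intervals that held 0.

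**Figure D3:**
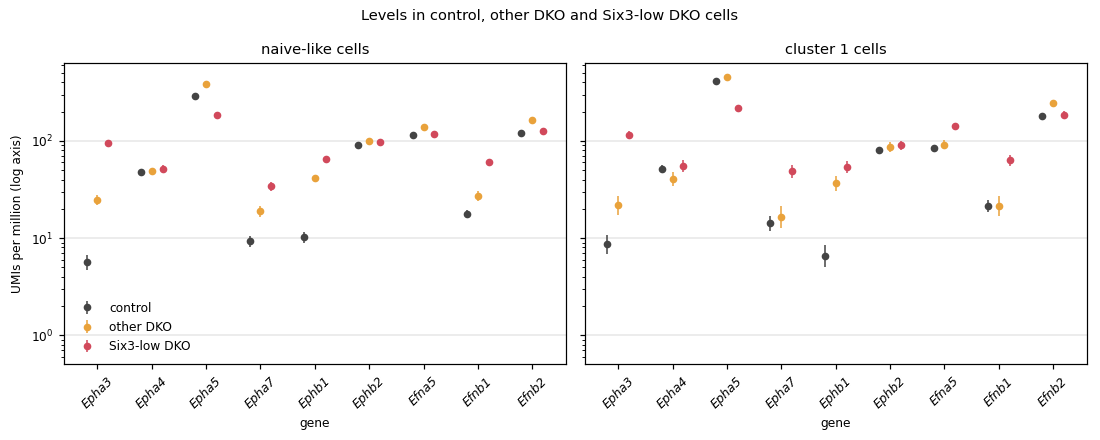
Levels of the 9 genes in CPM (log axis) in control, other DKO and Six3-low DKO cells, for naive-like cells (left) and cluster 1 (right), with exact 95% Poisson intervals. Epha3 stepped up from 5.65 to 24.6 and 95.1 CPM in naive-like cells, and Epha5 was lowest in Six3-low cells, at 187 CPM in naive-like cells and 220 CPM in cluster 1.

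Eph and ephrin genes are known for opposing gradients, so the naive-like cells were split by axis markers. Dorsal-marked cells had at least 1 UMI of Tbx5, Tbx3, Tbx2, Aldh1a1 or Bmp4 and none of Vax2, Aldh1a3 or Vax1, and ventral-marked cells the reverse. In the control, 1074 cells were dorsal-marked and 131 ventral-marked, and 757 had UMIs of both lists. Of the 8 members with at least 100 UMIs in these cells, the minimum also set for all genes, 5 were at least 1.5-fold higher in the dorsal-marked cells, against 7.91% of all genes, and 2 were higher in the ventral-marked cells, against 1.42%. Epha3, with 96 UMIs, stayed below that minimum.

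Efnb1 was the most unequal member in the control, at 26.4 CPM in dorsal-marked and 2.88 CPM in ventral-marked cells, a log2 ratio of 3.19 (1.82 to 5.08) that rests on 4 ventral UMIs. Efnb2 stood at 172 and 69.1 CPM and Epha5 at 385 and 137 CPM, with log2 ratios of 1.32 (1.02 to 1.63) and 1.49 (1.28 to 1.71). Epha3, Epha7 and Epha4 were also higher on the dorsal side, the first of these from 92 and 4 UMIs. Efna5 was lower in dorsal-marked cells, at 82.2 against 136 CPM, as was Ephb1 at 7.495 against 12.96 CPM, with an interval of its log2 ratio from -1.54 to 0.03. Ephb2 stood at 84.0 and 117 CPM, a log2 ratio of -0.47 (-0.72 to -0.22).

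In the DKO, with 971 dorsal-marked and 188 ventral-marked naive-like cells, 2 members were at least 1.5-fold higher on the dorsal side, against 6.74% of all genes, and 3 on the ventral side, against 3.19%. Epha5 (394 and 96.5 CPM) and Efnb2 (199 and 108 CPM) had the same side as in the control. Epha3 was on the other side, at 41.3 CPM in dorsal-marked and 148 CPM in ventral-marked cells, a log2 ratio of -1.84 (-2.07 to -1.61), and Efnb1 stood at 37.3 and 66.6 CPM, a log2 ratio of -0.84 (-1.13 to -0.53). Ephb1 stood at 32.1 and 82.6 CPM in the DKO, whereas its control interval held 0.

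The Six3-low cells were spread unequally over these groups, with 321 of the 971 dorsal-marked and 163 of the 188 ventral-marked DKO cells. Within the Six3-low cells alone, Epha3 stood at 66.7 CPM in dorsal-marked and 168 CPM in ventral-marked cells, a log2 ratio of -1.33 (-1.60 to -1.07), and Efnb1 at 51.6 and 70.0 CPM, a log2 ratio of -0.44 (-0.79 to -0.08). Epha5 kept its dorsal side there, at 277 and 76.7 CPM. The other DKO cells held only 25 ventral-marked cells.

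Nasal-marked cells had UMIs of Hmx1 and none of Foxd1 or Foxd2, and temporal-marked cells the reverse. Hmx1 as the only nasal marker was chosen after the data were seen. In the control, with 938 and 356 such cells, 2 of the 8 members with at least 100 UMIs were at least 1.5-fold higher in nasal-marked cells (Efna5 and Ephb1), against 1.95% of all genes, and 2 in temporal-marked cells (Epha5 and Epha7), against 0.867%. Efna5 stood at 140 CPM in nasal-marked and 70.1 CPM in temporal-marked cells, a log2 ratio of 1.002 (0.82 to 1.19), and Epha5 at 218.5 and 399 CPM, a log2 ratio of -0.87 (-0.96 to -0.78). Receptor and ligand were thus on opposite sides in these cells. Cell by cell, and with no axis marker, Efna5 was detected after thinning in 14.4% (12.2 to 16.9) of the control naive-like cells with an Epha5 UMI and in 22.4% (20.1 to 24.9) of those without, and in the DKO in 18.0% and 23.5%. In ganglion-like cells the 2 shares were close, at 16.6% and 17.3% in the control.

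In the DKO, with 840 nasal-marked and 237 temporal-marked naive-like cells, 1 member was at least 1.5-fold higher on the nasal side (Ephb1, at 63.1 and 30.45 CPM), against 2.12% of all genes, and 1 on the temporal side (Epha5), against 1.22%. Efna5 stood at 144.5 and 106 CPM, a log2 ratio of 0.45 (0.26 to 0.65), with an interval below that of the control. Epha5 stood at 249 and 449 CPM, a log2 ratio of -0.85 (-0.95 to -0.75). In Six3-low cells, with 326 nasal-marked and 74 temporal-marked cells, Epha5 stood at 115 and 464 CPM, a log2 ratio of -2.01 (-2.21 to -1.81). Epha3 had a log2 ratio of -0.06 (-0.77 to 0.70) in the control and -0.19 (-0.50 to 0.13) in the DKO, so that both intervals held 0.

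**Figure D4:**
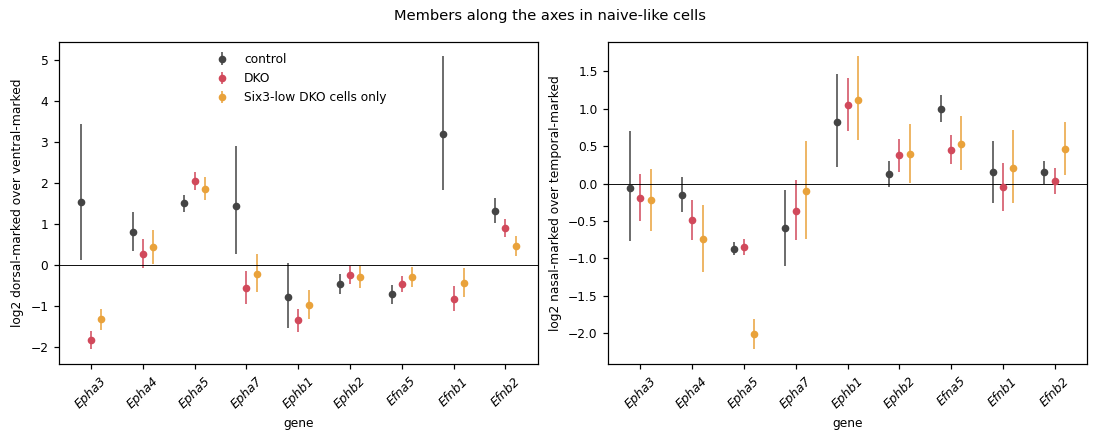
Log2 ratios of dorsal-marked over ventral-marked (left) and nasal-marked over temporal-marked (right) naive-like cells for each gene in the control, the DKO and the Six3-low DKO cells (1 library per genotype; bars are exact 95% counting intervals). Epha3 and Efnb1 lay above 0 on the left in the control and below 0 in the DKO, and Epha5 lay below 0 on the right in all 3 groups.

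Over the whole family, the summed ephrin-B ligands stood at 102 CPM in the control and 203 CPM in the DKO in ganglion-like cells, a log2 ratio of 0.99 (0.89 to 1.09), and at 113 and 208 CPM in neurogenic-like cells. The summed ephrin-A ligands differed little in the other direction, with log2 ratios of -0.17 in both types. Among the 13 other family genes, 8 had at least 100 UMIs in naive-like cells. Of these, 0 were at least 1.5-fold higher and 3 were lower in the DKO, namely Epha6 (4.69 and 2.50 CPM), Ephb6 (3.16 and 1.99 CPM) and Epha2 (15.7 and 10.2 CPM), beside the 5.12% and 2.71% of all genes. Epha6, an EphA receptor, was temporal in the control like Epha5, with a nasal over temporal log2 ratio of -1.61 (-2.33 to -0.89).

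The genes that act downstream of or beside Eph receptors and ephrins, a list of 37 adaptors, kinases, guanine nucleotide exchange factors and proteases, were mostly level. In naive-like cells, 35 had at least 100 UMIs, 1 was at least 1.5-fold higher in the DKO and 0 were lower, beside 5.12% and 2.71% of all genes. The median log2 ratio of the 35 was 0.05, beside 0.30 for the 9 members, and both lists were chosen with earlier results of these data known. The gene that was higher was Chn2, a chimaerin that switches off Rac, at 1.62 and 3.06 CPM. In ganglion-like cells 3 of 33 were higher and 0 lower, a share near the 7.49% of all genes that were higher there.

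Markers of other cell types moved with genotype in the same cells. In naive-like cells, the summed level of 8 pigment epithelium markers was 20.1 CPM in the control and 112 CPM in the DKO, with 7 of the 8 higher and 1 at 0 in each, and that of 7 ciliary margin markers was 257 and 504 CPM, with 6 of the 7 higher. The 9 ganglion cell markers summed to 78.7 and 138 CPM, while the 7 lens markers summed to 231 and 96.2 CPM and the 6 red blood cell markers to 3554 and 2582 CPM. Of the 8 pigment epithelium markers, Dct, Mitf and Trpm1 are reported by the study as ciliary margin genes that were higher without Six3 and Six6. In ganglion-like cells the ciliary margin markers summed to 88.5 and 171 CPM, the pigment epithelium markers to 2.78 and 35.8 CPM, with 7 of the 8 higher, and the red blood cell markers to 8735 and 2427 CPM, with 0 of the 6 higher. In neurogenic-like cells the ganglion cell markers summed to 817 and 1250.0 CPM, with 6 of the 9 higher. The part of these shifts in the member ratios was not tested. In the pigment epithelium-like cells themselves, Epha3 stood at 7.94 CPM in the control and 18.4 CPM in the DKO, and Ephb1 at 6.77 and 21.1 CPM. In those cells 3 members (Epha3, Epha7 and Ephb1) were at least 1.5-fold higher in the DKO, against 7.1% of all genes, and 0 were lower, against 3.78%. The make-up of this class differed between the libraries, with ciliary margin markers at 599 and 2008 CPM, pigment epithelium markers at 527 and 1420.0 CPM and 8 naive progenitor markers at 3253 and 1654 CPM.

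The genes whose level followed each member most closely were sought over 25 cluster and library groups of retinal cells, as Pearson's r of log2(CPM + 1) among 6454 genes of at least 20 CPM on average. The nearest gene to Epha3 was Frmd4b, with r = 0.89, to Ephb1 Ddah1 with r = 0.87, and to Ephb2 Abi2 with r = 0.94. Epha5 was followed most closely by Ptprg (r = 0.91), Epha7 by Cdh2 (r = 0.85) and Epha4 by Igf2r (r = 0.85). For the ligands, these were Lamp2 for Efna5 (r = 0.89), Zcchc11 for Efnb1 (r = 0.83) and Ptprz1 for Efnb2 (r = 0.81). The groups share 2 libraries and differ in depth, and cluster 3, whose cells had medians of about 1026 control and 982 DKO UMIs, had the lowest control level of every member except Ephb1. Without cluster 3 the r of Epha5 with Ptprg was 0.73 and that of Epha7 with Cdh2 0.69, whereas that of Ephb1 with Ddah1 was 0.88.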

How the data were processed

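Per the labels and the study's methods, eyecup cells were run on a 10x Single Cell 3′ v3 kit, and the authors made the deposited UMI counts with Cell Ranger 3.1.0 on mm10. Here cells with 200 to 6000 genes and at most 20% mitochondrial UMIs were kept. Seurat 5.3.0 (R 4.3.3) integrated the libraries (2000 variable genes, 20 dimensions, resolution 0.5), leaving out the Eph and ephrin family, other genes the study names, sex-linked genes and haemoglobins. Clusters were named where at least 75% of a class's markers were raised. Doublets called by Scrublet (scanpy 1.11.5) were kept, and left out as an alternative. Python 3.11.15 summed UMIs per class, with exact Poisson intervals for levels and exact binomial intervals for ratios, checked on simulated data. Gene counts at 1.5-fold used genes with at least 100 UMIs. Member levels are not divided by length. Nasal cells were marked by Hmx1 alone, which departs from the marking first planned and was chosen after the data were seen; 1 item is not reported here. There were 1 sample per genotype and no test. The members, lists and motifs were chosen with earlier results of these data known. Named genes were the 9 members, up to 5 of each other list past 1.5-fold in naive-like cells, and the nearest by correlation.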

Additional observations from a re-analysis of the deposited data

Results flagged for a closer look

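Ephb2 and Efna5 differed between genotypes in opposite directions in different cell types. The log2 ratio of DKO over control of Ephb2 was 0.13 in naive-like, 0.36 in neurogenic-like and -0.26 in ganglion-like cells. That of Efna5 was 0.18 in naive-like, -0.20 in neurogenic-like and -0.19 in ganglion-like cells. With 1 library per genotype, the difference between cell types was not tested.

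Along the dorsoventral axis, 3 members lay on opposite sides in the 2 libraries. The log2 ratio of dorsal-marked over ventral-marked naive-like cells was 1.53 in the control and -1.84 in the DKO for Epha3, 1.42 and -0.57 for Epha7, and 3.19 and -0.84 for Efnb1. The control values rest on 4, 6 and 4 ventral UMIs of these genes, and the difference between the libraries was not tested.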

How the results depend on the processing

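No paired analysis was possible because only 1 library represented each genotype. Among 342 recomputed ratios of DKO over control for the members, 237 stayed within the counting interval and 105 moved past it. The sign changed in 0 of the 152 ratios whose reported value was past 1.5-fold and in 23 of the 190 others. With the libraries merged without integration, 2 members (Epha3 and Ephb1) were at least 1.5-fold higher in naive-like cells in place of 4, and 1 was lower in neurogenic-like cells. In that run a cluster of 955 DKO cells and 1 control cell was named ciliary margin and stood outside the naive-like class. Another cluster, of 1498 DKO and 15 control cells, stayed unnamed and stood outside the ganglion-like class. The members past 1.5-fold in ganglion-like cells stayed past it there, with log2 ratios of 0.84 for Efnb1 and 0.83 for Efnb2. The classes compared therefore did not hold the same cells. On a log2 scale with 1 added to the mean count per 10000 UMIs, 0 members passed 1.5-fold in naive-like, neurogenic-like or ganglion-like cells, where the control level of each member called stood below the added 1. With Six3-low DKO cells only, 1 member was lower in naive-like, 2 in neurogenic-like (59 DKO cells) and 1 in ganglion-like cells (78 DKO cells), in place of 0. The 59 neurogenic-like cells had Six3 at 226 CPM, against 265 CPM in the other DKO cells of that class. The naive-like log2 ratio of Epha3 ranged from 1.78 to 4.07 and that of Ephb1 from 2.30 to 2.68 over 12 alternatives.

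Of the axis counts, here over all 9 members, requiring 2 marker UMIs left 1 member ventral, 1 nasal and 1 temporal in the control in place of 2 each, and gave 2 nasal and 3 temporal members in the DKO in place of 1 each. Marking after thinning left 1 temporal member in the control and gave 3 in the DKO. Among alternatives chosen after seeing the data, Six3-low cells left 1 member dorsal in the DKO in place of 2 and gave 2 temporal in place of 1. In other DKO cells Epha3 reversed, with a dorsal over ventral log2 ratio of 1.15, from 3 ventral UMIs. For the settings other than the added 1, the cause was not tested.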
